A study of Homo sapiens with 2 samples.

Results

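The genes described here are the human guidance genes of the semaphorin, plexin, neuropilin, netrin and Slit families, read on Illumina bead arrays. They were chosen by the letters of the platform gene symbol, with no measured value used: symbols that start with SEMA, PLXN, NTN, SLIT (without the SLITRK genes), ROBO or UNC5, together with NRP1, NRP2, DCC and NEO1. The rule found 82 probes of 52 genes, among 47323 probes and 20046 named genes. All 52 were found by gene ID in RefSeq, whose table holds 52 protein-coding symbols that fit the rule. The letters also take in UNC50, a Golgi protein that is no netrin receptor, and UNC5CL, a signalling protein that resembles the UNC5 death domain.

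The arrays compared radiation-adapted A4573 cells, whose sample carries the label 4 Gy, with wild-type A4573 cells. A4573 is an established cell line of Ewing sarcoma, a bone and soft tissue cancer of the young in which a gene fusion, usually of EWSR1 with FLI1, makes an aberrant transcription factor. The labels give no irradiation schedule, no time of harvest and no count of cultures or clones. There was 1 array of total RNA per group, so no difference below has a replicate check and none was tested.

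Semaphorins are secreted or membrane-bound proteins that mostly repel growing axons and migrating cells. Plexins are their receptors and act by switching off Ras-family GTPases, and neuropilins hold secreted class 3 semaphorins to the class A plexins. Netrins attract cells through DCC and neogenin and repel them through UNC5 receptors, and Slits repel through Robo receptors. DCC and the UNC5 proteins are known as dependence receptors, which can promote cell death when no netrin is bound. Outside the nervous system these families also act in vessel growth, immune cells and tumour invasion.

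Probes with a detection p no higher than 0.01 were taken as detected. At this limit the adapted array had 16712 detected probes, the dimmest at 158.2, and a median intensity of 140.2. The wild-type array had 17903 detected probes, the dimmest at 152, and a median intensity of 139.4. Of the markers of Ewing sarcoma checked, all 4 (CD99, FLI1, NKX2-2 and STEAP1) were detected in both arrays. After normalisation FLI1 was 1.76-fold higher in the adapted array, and CD99, NKX2-2 and STEAP1 differed by less than 1.5-fold. Of markers of other cells, 0 of 4 for endothelium, 1 of 5 for leukocytes (CD14), 1 of 4 for epithelium (EPCAM), 2 of 4 for neurons (SNAP25 and SYT1) and 4 of 4 for fibroblasts were detected. The summed intensity of the fibroblast markers was 2299.3 in the adapted array and 2511.4 in the wild-type array, with COL3A1 and LUM at least 1.5-fold higher and PDGFRB and THY1 at least 1.5-fold lower in the adapted array. Both samples are labelled as A4573 cells, so a detected marker alone does not show that other cells were present. Whether other cells added to the guidance gene values was not tested. In bulk RNA, fewer cells of a type and less RNA per cell cannot be told apart.

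Of the 52 guidance genes, 32 had a detected probe. The adapted array alone detected 1 of them (PLXNB3), the wild-type array alone 3 (SEMA3G, SEMA6B and PLXNB1), and both detected the other 28. Of all 11296 genes with a detected probe, 464 passed the limit only on the adapted side and 1004 only on the wild-type side. The lean to wild-type cells was thus not particular to the guidance genes. Differences are given as log2 of the adapted array minus log2 of the wild-type array after background correction and quantile normalisation, and 1.5-fold, or 0.58 on this scale, was the size at which a gene was counted. At that size 4 members were higher in the adapted array (SEMA5B, UNC5A, SEMA3C and NTN4) and 7 lower (SEMA3F, SEMA4F, SEMA4A, PLXNB2, NRP1, NTN1 and SEMA6B). The 4 higher are 12.5% of the detected members, against 11.8% of all 11296 detected genes, which is near the background. The 7 lower are 21.9%, against 12.2% of all detected genes. Without background correction the counts were 2 higher (SEMA5B and UNC5A) and 2 lower (PLXNB2 and SEMA4F), against 4.24% and 5.81% of all detected genes. The 2 lower were then 6.25% of the detected members, near the background of that setting.

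The median difference over the 32 detected members was -0.31, or -0.28 with bounds in place of the measured values of the 4 genes that a single array detected, against 0.01 over all detected genes. Without UNC50 it was -0.33, with the same 4 higher and 7 lower genes. Values below 0 were read for 22 of the 32, or 68.8%, against 49.3% of all detected genes. The 22 include SEMA3E, SEMA4B, NEO1, UNC50 and UNC5B, to which no direction is given below. They also include SEMA3G, SEMA6B and PLXNB1, which the wild-type array alone detected. With each array scaled to a common median in place of quantile normalisation, the median over all detected genes moved by 0.16, 18 members read below 0, and 22 read below the median of all genes as in the main normalisation. Of all detected genes that scaling put 19.1% at least 1.5-fold higher and 8.98% lower, against 11.8% and 12.2% in the main normalisation, while the members stayed at 4 and 7.

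**Figure D1:**
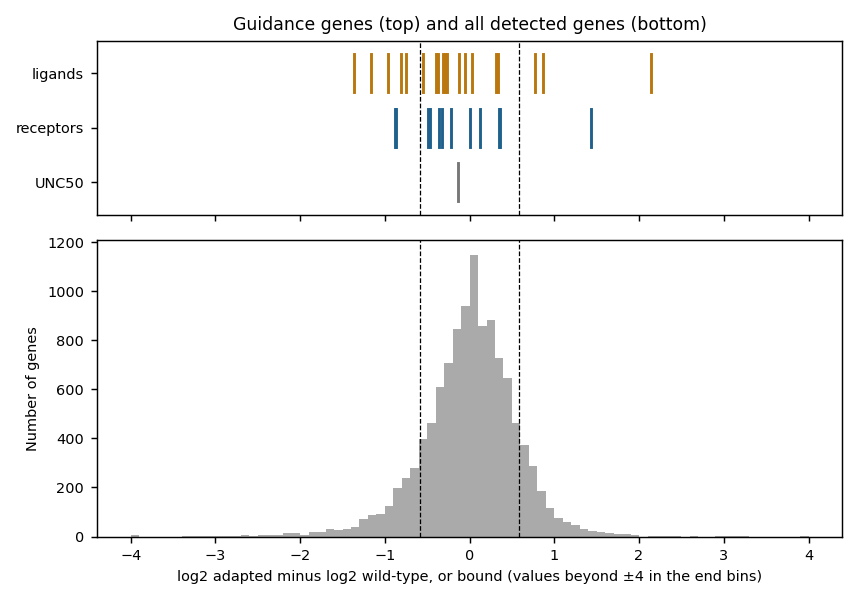
The horizontal axis is the log2 adapted minus log2 wild-type difference, or its bound for a gene detected in 1 array only; each tick in the upper panel is 1 of the 32 detected guidance genes, by kind, and the lower panel counts all 11296 detected genes, with dashed lines at 1.5-fold. Most guidance genes lie inside the dashed lines, with SEMA5B at 2.15 and UNC5A at 1.43 to the right and SEMA3F at -1.37 furthest to the left.

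The spread between probes of 1 gene gives the only measure of error in these files. Across 2326 genes for which both arrays detected 2 or more probes, the differences read by the 2 brightest probes lay a median of 0.22 apart. Where both probes were dim, with mean normalised values under 8, the median gap was 0.27 and the SD per probe 0.32 (725 genes); where both were at 8 or more, it was 0.16 and 0.21 (864 genes). This spread covers probe error and transcript variants within this pair of arrays and leaves out the spread between cultures. The guidance genes were mostly dim: 19 of the 32 detected members had intensities under 300 in both arrays.

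The 250 bases before and 50 after a start site are shown for the 2 members furthest apart in each direction among those detected in both arrays, SEMA5B and UNC5A (higher) and SEMA3F and SEMA4F (lower), so that their start regions can be read beside their values. The sequences are those of RefSeq, build GRCh38.p14, in the direction of transcription, at chr3:123028556-123028855 (minus strand) for SEMA5B, chr5:176810309-176810608 (plus strand) for UNC5A, chr3:50154808-50155107 (plus strand) for SEMA3F and chr2:74653997-74654296 (plus strand) for SEMA4F. RefSeq lists 3 windows each for SEMA5B and SEMA3F, and the most upstream one is shown; which start the probe's transcript uses was not analysed here. Capitals mark GGAAGGAA, a repeat of the core that ETS factors such as FLI1 bind, in UNC5A (on the other strand), the EGR box GCGGGGGCG and CCAAT in SEMA3F, and CCAAT in SEMA4F (on the other strand).
SEMA5B: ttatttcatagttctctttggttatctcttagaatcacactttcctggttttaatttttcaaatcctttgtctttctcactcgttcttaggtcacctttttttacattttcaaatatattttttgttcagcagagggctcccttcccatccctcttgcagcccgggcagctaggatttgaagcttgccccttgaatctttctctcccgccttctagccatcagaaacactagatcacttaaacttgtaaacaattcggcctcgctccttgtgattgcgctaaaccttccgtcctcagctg
UNC5A: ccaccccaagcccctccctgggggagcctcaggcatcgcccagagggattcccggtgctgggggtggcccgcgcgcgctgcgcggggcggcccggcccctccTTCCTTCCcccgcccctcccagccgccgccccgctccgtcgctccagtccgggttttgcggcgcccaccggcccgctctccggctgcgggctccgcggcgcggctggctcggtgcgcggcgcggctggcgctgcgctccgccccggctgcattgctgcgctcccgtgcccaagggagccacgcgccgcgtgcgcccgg
SEMA3F: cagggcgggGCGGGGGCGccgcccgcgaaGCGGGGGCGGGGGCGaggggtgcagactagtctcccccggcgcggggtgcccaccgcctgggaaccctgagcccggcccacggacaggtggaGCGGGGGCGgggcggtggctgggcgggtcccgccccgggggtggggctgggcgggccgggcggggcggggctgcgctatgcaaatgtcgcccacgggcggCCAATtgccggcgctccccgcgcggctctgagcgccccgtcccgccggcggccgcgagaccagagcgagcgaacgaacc
SEMA4F: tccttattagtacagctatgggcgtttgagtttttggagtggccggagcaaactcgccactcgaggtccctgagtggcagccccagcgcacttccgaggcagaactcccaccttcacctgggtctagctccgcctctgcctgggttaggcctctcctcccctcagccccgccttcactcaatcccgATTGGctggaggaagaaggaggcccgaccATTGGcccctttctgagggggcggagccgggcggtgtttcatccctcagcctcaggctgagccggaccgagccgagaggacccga
The SEMA5B window had 42% G and C and 7 CpG steps, against 80.7% and 44 for UNC5A, 81.3% and 44 for SEMA3F, 63% and 17 for SEMA4F and medians of 58.7% and 14 over all 35116 windows.

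In all, 9 motifs were searched on both strands, with overlapping matches kept, in the 17 windows listed for 8 of the 11 members at least 1.5-fold apart. GGAAGGAA stood in 1 of the 17 windows (3.67% of all windows), GCGGGGGCG in 2 (5.07%), CCAAT in 6 (34.6%) and the GC box GGGCGG, which the EGR box can overlap, in 9 (45%). The AP-1 site TGANTCA (7.71% of all windows), the cAMP response element TGACGTCA (1.85%), the E-box CACGTG (7.26%), TATAAA (11.5%) and the E2F site TTTGGCGC (0.652%) stood in 0 of them. The SEMA3F window alone held 4 EGR boxes. A match is a run of letters and says nothing of binding in these cells.

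Among the class 3 semaphorins, the secreted ligands, 5 of 7 genes were detected, 1 of them higher and 1 lower in the adapted array. Each is 20% of the 5, against 11.8% higher and 12.2% lower over all detected genes. SEMA3F, a repellent that signals through neuropilin-2 and class A plexins, read an intensity of 164.8 in the adapted array and 240.4 in the wild-type array. The normalised log2 values were 5.69 in the adapted array and 7.05 in the wild-type array, a difference of -1.37 or 2.58-fold lower. The adapted value lay close to the dimmest detected probe, with a detection p of 0.00649, and without background correction the difference was -0.58, just under 1.5-fold. SEMA3C, a ligand known from heart outflow tract formation and from tumour cell migration, went the other way, at 265.4 in the adapted array and 191.9 in the wild-type array. Its normalised values were 7.19 in adapted and 6.33 in wild-type cells, a difference of 0.86 or 1.82-fold higher (0.42 without background correction).

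SEMA3A and SEMA3E differed by less than 1.5-fold. SEMA3A, the collapsing factor of growth cones that binds neuropilin-1, read 197.1 in the adapted array and 177.1 in the wild-type array (0.34). SEMA3E, which can signal through plexin D1 without a neuropilin, read 4281.4 in the adapted array and 3697.7 in the wild-type array, and its normalised difference of -0.05 was smaller than the gap usual between probes. SEMA3G, a ligand of neuropilin-2 known from vessels, was detected in the wild-type array alone (168.1, against 130.2 in the adapted array), so that its difference is a bound of at least 1.24-fold lower in the adapted array. This does not place SEMA3G on either side of 1.5-fold: its measured difference was -1.20. SEMA3B and SEMA3D were not detected in either array.

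All 6 class 4 semaphorins, which are membrane-bound ligands mostly of class B plexins, were detected in both arrays, with 2 lower and 0 higher. The 2 are 33.3% of a class of 6 genes, against 12.2% lower over all detected genes. SEMA4F, a transmembrane semaphorin known from neurons and their synapses, read 320.9 in the adapted array and 520.7 in the wild-type array, or 7.62 (adapted) and 8.79 (wild-type) after normalisation. Its difference of -1.16 (2.24-fold lower) was -0.84 without background correction. A further SEMA4F probe, matched to an expressed sequence tag, did not show it: it read 159.4 in the adapted array and 151.7 in the wild-type array (0.22) and was not detected in the wild-type array. With the mean over probes the gene stood at -0.47, under 1.5-fold.

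SEMA4A, a semaphorin with roles in T cell priming and in the retina, read 165.6 in the adapted array and 212.2 in the wild-type array, or 5.71 (adapted) and 6.68 (wild-type) after normalisation. Its difference was -0.97, or 1.96-fold lower, and -0.38 without background correction. The adapted value of SEMA4A lay close to the dimmest detected probe, with a detection p of 0.00519. SEMA4C (-0.38), SEMA4G (-0.29), SEMA4B (-0.12) and SEMA4D (0.02) were closer together in the arrays. SEMA4D, also known as CD100 and the classic ligand of plexin B1, read 432 in the adapted array and 384.2 in the wild-type array. Of the class 4 genes 5 read below 0 in the main normalisation and 1 above, but under median scaling SEMA4B (0.01) turned above 0. Over all detected genes 49.3% read below 0 in the main normalisation.

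Classes 5 to 7 held the member with the largest difference. SEMA5B, a transmembrane semaphorin with thrombospondin repeats, known from rodent neurons as a repellent of axons, read 667.5 in the adapted array and 224.9 in the wild-type array. The raw ratio was 2.97, and the normalised values of 9.01 (adapted) and 6.87 (wild-type) gave 2.15, or 4.42-fold higher. SEMA5B stayed at least 1.5-fold higher under all 7 alternatives, from 1.45 without background correction to 2.31 under median scaling. It rests on 1 probe, detected in both arrays. The alternatives on detection and the mean over probes could therefore not change its value. The related SEMA5A was not detected by either of its 2 probes, at 106.9 and 141.8 in the adapted array and 115.3 and 134.2 in the wild-type array.

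Of the class 6 semaphorins, ligands of class A plexins that can also act as receptors, SEMA6B was detected in the wild-type array alone, at 187.2 with a detection p of 0.0026, against 145.3 with a detection p of 0.0662 in the adapted array. The measured difference was -1.19 and the bound -0.75, at least 1.68-fold lower. The bound shrank to -0.26 without background correction, and a further SEMA6B probe was not detected in either array. SEMA6C (-0.39) and SEMA6A (-0.26) differed by less than 1.5-fold. SEMA6D, by 5 probes, and SEMA7A, a membrane-anchored ligand of integrins and plexin C1, were not detected.

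**Figure D2:**
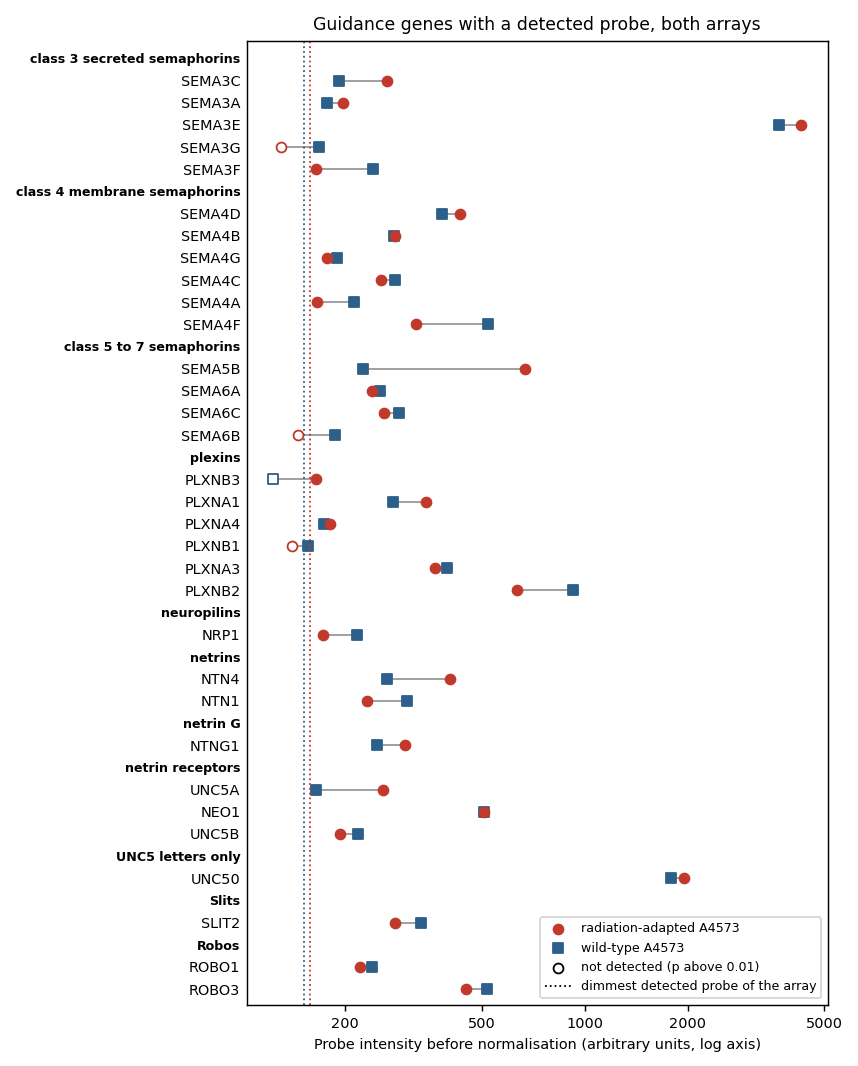
Each row is 1 of the 32 guidance genes with a detected probe, grouped by family, with its probe intensity before normalisation on a log axis in the adapted array (red circles) and the wild-type array (blue squares); open symbols were not detected and dotted lines mark the dimmest detected probe of each array. Compare points within a row, since probes differ in brightness for the same RNA: the widest gap is that of SEMA5B, 667.5 in the adapted array and 224.9 in the wild-type array.

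For 4 members (SEMA3E, SEMA4B, NEO1 and UNC50) the raw intensity was slightly higher in the adapted array and the normalised difference slightly below 0. Under median scaling these 4 read between 0.01 and 0.23. No direction is given for them.

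Of the 9 plexins, 6 were detected, 1 of them lower and 0 higher by 1.5-fold. The 1 lower gene is 16.7% of the 6, against 12.2% of all detected genes. PLXNB2, the receptor of SEMA4C and SEMA4D that is known from neural tube closure and glioma invasion, read 632.6 in the adapted array and 921.5 in the wild-type array. Its normalised values were 8.92 in adapted and 9.80 in wild-type cells, a difference of -0.88 or 1.84-fold lower. It stayed at least 1.5-fold lower under all 7 alternatives, between -0.88 and -0.63, and at -0.75 without background correction. The alternatives on detection left its value unchanged, since both arrays detected this probe. A further PLXNB2 probe ran the same way, at 138.1 and not detected in the adapted array and 157.1 in the wild-type array.

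PLXNB1, the main receptor of SEMA4D, was detected in the wild-type array alone, at 156, and read 140.2 in the adapted array, so close to the detection limit that no fold can be given. PLXNB3, the receptor of SEMA5A, was detected in the adapted array alone, at 164.2 against 123.4 in the wild-type array, a bound of at least 1.28-fold higher. Neither was counted as past 1.5-fold, and the bounds do not place them under it: the measured differences were -0.56 for PLXNB1 and 1.18 for PLXNB3. Among the class A plexins, which carry the signal of class 3 and class 6 semaphorins, PLXNA1 (0.35) and PLXNA4 (0.12) read above 0 and PLXNA3 (-0.36) below, all under 1.5-fold. PLXNA2, PLXNC1 and PLXND1, the receptor of SEMA3E, were not detected.

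NRP1, the receptor of SEMA3A that also binds VEGF, was lower by both of its probes. The probe that stands for the gene read 172.2 in the adapted array and 216.3 in the wild-type array, with normalised values of 5.88 (adapted) and 6.74 (wild-type), a difference of -0.87 or 1.83-fold lower. The other probe, which the platform assigns to another transcript, read 162.4 in the adapted array and 189.8 in the wild-type array (-0.67). Without background correction the first probe stood at -0.36, and its adapted value was close to the detection limit. NRP2, the receptor of SEMA3F and SEMA3G, was not detected by any of its 4 probes, whose detection p lay between 0.291 and 0.913 in the adapted array and between 0.409 and 0.7 in the wild-type array.

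The 2 detected netrins went opposite ways. NTN4, a basement membrane netrin that binds laminins, read 404.6 in the adapted array and 265.7 in the wild-type array, or 8.09 (adapted) and 7.32 (wild-type) after normalisation, a difference of 0.77 or 1.71-fold higher. A further NTN4 probe ran the same way, at 195.2 in the adapted array and 149.5 and not detected in the wild-type array. NTN1, the classic chemoattractant of commissural axons and ligand of DCC, neogenin and UNC5 receptors, read 231.9 in the adapted array and 302.6 in the wild-type array, or 6.84 (adapted) and 7.65 (wild-type) after normalisation, a difference of -0.81 or 1.75-fold lower. A further NTN1 probe was not detected in either array. Both genes were under 1.5-fold without background correction, at 0.50 for NTN4 and -0.46 for NTN1, and both kept their direction under all 7 alternatives. The alternatives on detection left both values unchanged, as did the mean over probes for NTN1.

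NTN3 and NTN5 were not detected. Of the netrin G proteins, membrane-anchored relatives that bind LRRC4 family proteins and not DCC, NTNG1 read 298.3 in the adapted array and 248.4 in the wild-type array (0.31), with 0.31 by its other probe as well. NTNG2 was not detected.

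Of the 6 netrin receptors 3 were detected, with 1 higher and 0 lower by 1.5-fold. The 1 higher gene is 33.3% of only 3, against 11.8% of all detected genes. UNC5A, a dependence receptor of netrin-1 known mainly from neurons, read 258.2 in the adapted array and 164 in the wild-type array, with a detection p of 0.00519 in the wild-type array. Its normalised values of 7.12 (adapted) and 5.69 (wild-type) gave 1.43, or 2.70-fold higher, on 1 probe. The gene stayed at least 1.5-fold higher under all 7 alternatives, but the size ran from 0.62 without background correction to 1.51 in the authors' processed values. With 1 probe detected in both arrays, the alternatives on detection and the mean over probes could not change it. The raw ratio was 1.57.

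UNC5B, a dependence receptor known from vessel branching, was read by 2 probes detected in both arrays that disagreed. One read 192.8 in the adapted array and 217.4 in the wild-type array (-0.47) and the other 218.4 in the adapted array and 189.8 in the wild-type array (0.39), so no direction is given. NEO1, or neogenin, the receptor of netrins and of repulsive guidance molecules, read 507.2 in the adapted array and 506.7 in the wild-type array (-0.22). DCC, the attractive netrin receptor that is often lost in colorectal cancer, read 150.1 with a detection p of 0.0351 in the adapted array and 147.2 with 0.0299 in the wild-type array. UNC5C, UNC5D and UNC5CL were not detected. UNC50, taken in by its letters, read 1942.4 in the adapted array and 1786.7 in the wild-type array (-0.14).

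In the Slit and Robo families no member reached 1.5-fold. SLIT2, a midline repellent that is silenced in many tumours, read 280.3 in the adapted array and 333.7 in the wild-type array (-0.55, 1.47-fold lower, just under the size counted). ROBO1, its main receptor, read 221.4 in the adapted array and 240.1 in the wild-type array (-0.33). ROBO3, which in mammals lets axons cross the midline, read 450.9 in the adapted array and 520 in the wild-type array (-0.49). All 3 detected members were thus below 0, also under median scaling (-0.40, -0.24 and -0.26). Of all detected genes, 49.3% read below 0 in the main normalisation and 38.1% under median scaling. The ROBO1 difference was near the SD of 0.32 per dim probe, and no family trait is read from 3 genes. SLIT1, SLIT3, ROBO2 and ROBO4, the endothelial Robo, were not detected.

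**Figure D3:**
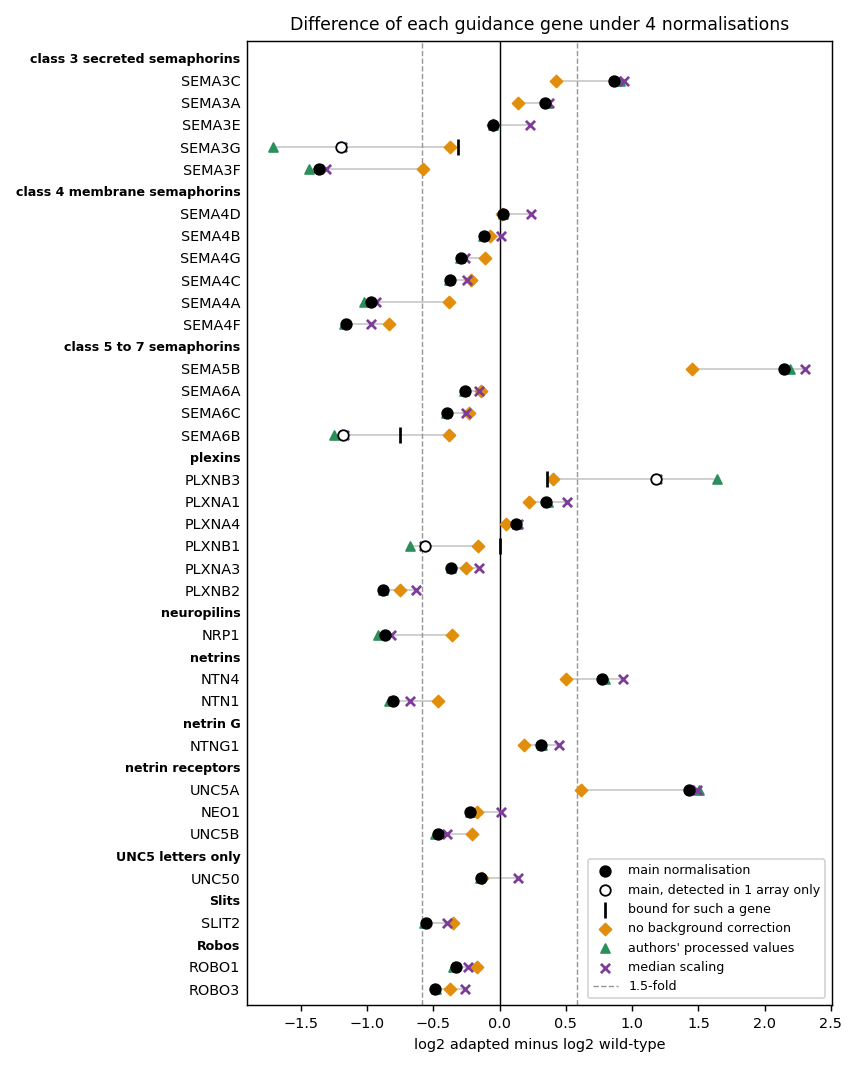
Each row is a guidance gene with a detected probe, and the horizontal axis is log2 adapted minus log2 wild-type of the probe that stands for it, under the main normalisation (black), without background correction (orange), in the authors' processed values (green) and under median scaling (purple); vertical bars give the bound for genes detected in 1 array only, and dashed lines mark 1.5-fold. SEMA5B, UNC5A, SEMA4F and PLXNB2 lie beyond the dashed lines under all 4, whereas the orange points of all other genes fall inside them.

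Over the 20 undetected members, the 34 probes read between 106.9 and 153.4 in the adapted array and between 108.2 and 150.3 in the wild-type array. With the detection limit at 0.05, 7 of the 20 (DCC, PLXND1, ROBO2, SLIT1, SLIT3, UNC5C and UNC5CL) counted as detected in at least 1 array. An undetected probe gives only an upper limit on its signal, and these genes may be expressed at a level the arrays do not show.

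Ligand and receptor values can be read side by side for pairs of known partners, with no link between them tested. For netrin-1 and its receptors, NTN1 was 1.75-fold lower while UNC5A was 2.70-fold higher, each by 1 detected probe, and NEO1 differed by less than 1.5-fold. The UNC5B probes disagreed (-0.47 and 0.39), and DCC, UNC5C and UNC5D were not detected. For SEMA3F the ligand was 2.58-fold lower and its receptor NRP2 undetected. For the vessel repellent SEMA3E the ligand was detected in both arrays and its receptor PLXND1 read 152.9 with a detection p of 0.0182 in the adapted array and 141.6 with 0.0766 in the wild-type array. For SEMA4C, SEMA4D and their receptor PLXNB2, the ligands differed by less than 1.5-fold and the receptor was 1.84-fold lower. By kind, the 19 detected ligands held 3 higher and 5 lower genes (15.8% and 26.3%, median -0.29), and the 12 detected receptors 1 higher and 2 lower (8.33% and 16.7%, median -0.35), against 11.8% and 12.2% of all detected genes. Without background correction SEMA5B and SEMA4F were the ligands still counted, and UNC5A and PLXNB2 the receptors.

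**Figure D4:**
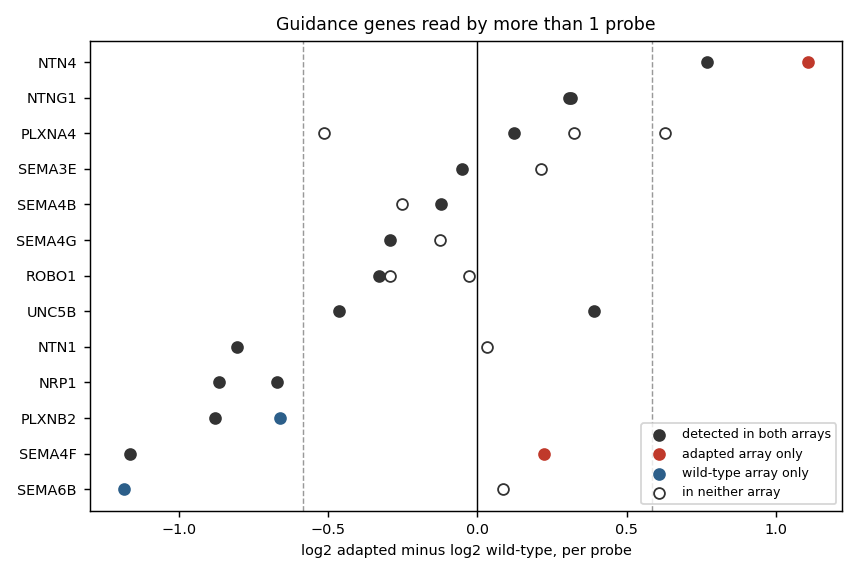
Each point is 1 probe of a guidance gene that has more than 1 probe and at least 1 of them detected, on the axis of log2 adapted minus log2 wild-type; fill gives the arrays that detected it, and dashed lines mark 1.5-fold. The probes of NRP1, NTN4, NTNG1 and PLXNB2 lie on the same side of 0, and those of UNC5B (-0.47 and 0.39) and SEMA4F (-1.16 and 0.22) on opposite sides.

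Of the 52 members 22 had more than 1 probe, and for 6 of these (NRP1, NTN4, NTNG1, PLXNB2, SEMA4F and UNC5B) more than 1 probe was detected in at least 1 array. Among the 11 members at least 1.5-fold apart, a further detected probe had the same direction for NRP1, NTN4 and PLXNB2 and the opposite one for SEMA4F. Only the further NRP1 probe was detected in both arrays. Those of NTN4, PLXNB2 and SEMA4F were detected only in the array where they read higher. The detection rule thus largely set their direction. Across the 2326 genes with 2 or more probes detected in both arrays, the 2 brightest differed in sign for 24.8%. SEMA5B, UNC5A, SEMA3C, SEMA3F and SEMA4A were read by 1 probe each, and NTN1 and SEMA6B by 1 detected probe.

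Proteins that act beside or below these receptors were described from lists written by role. Of 29 genes of semaphorin and plexin signalling 17 were detected, with 0 higher, 2 lower and a median of -0.04. The 2 lower are 11.8% of the detected genes of this list, near the 12.2% of all detected genes. RRAS, the Ras-family GTPase that plexins inactivate, read 841.9 in the adapted array and 1627.6 in the wild-type array (-1.31, 2.49-fold lower, and -1.19 without background correction). MICAL1, an oxidoreductase that binds plexins and takes actin filaments apart, read 186.6 in the adapted array and 282.6 in the wild-type array (-1.31, or -0.66 without background correction). The collapsin response mediators CRMP1 (0.27), DPYSL2 (0.08), DPYSL3 (0.51) and DPYSL4 (-0.12), which relay semaphorin signals to microtubules, differed by less than 1.5-fold.

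For netrin receptor signalling all 15 genes were detected, and 3 were higher and 0 lower (20% and 0%, against 11.8% and 12.2% of all detected genes, median 0.03). The 3 were just past 1.5-fold: ABLIM1 (0.63), an actin-binding LIM protein, TRIO (0.62), an exchange factor for Rac, and DOCK1 (0.59), another activator of Rac. Of 14 Slit and Robo effectors 11 were detected, with 2 higher, 2 lower and a median of 0.01. That is 18.2% in each direction, against 11.8% and 12.2% of all detected genes. SRGAP1 (0.71), a protein that binds Robo, and MYO9B (0.63), an unconventional myosin, were higher, and the tyrosine kinase ABL1 (-0.69) and the actin regulator EVL (-0.63) were lower. Without background correction MYO9B (0.33), SRGAP1 (0.28), TRIO (0.22), ABLIM1 (0.56), DOCK1 (0.38) and ABL1 (-0.58) were under 1.5-fold. Under median scaling ABL1 (-0.45) and EVL (-0.36) were under it, and with the mean over its 3 detected probes ABLIM1 (0.22) was.

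Of 25 partner ligands and co-receptors 15 were detected, with 1 higher, 4 lower and a median of -0.37. The shares are 6.67% higher and 26.7% lower, against 11.8% and 12.2% of all detected genes. VEGFA, a growth factor that binds NRP1, read 674.7 in the adapted array and 425.9 in the wild-type array (0.61, or 0.48 without background correction). The lower ones were the heparan sulphate proteoglycan SDC1 (-0.89), the adhesion molecule NRCAM, a co-receptor in semaphorin responses, at least 1.83-fold lower, the neogenin ligand RGMB, at least 1.82-fold lower, and the netrin G1 ligand LRRC4C, at least 1.63-fold lower. The last 3 were not detected in the adapted array, and without background correction their bounds were under 1.5-fold (-0.31 for NRCAM, -0.31 for RGMB and -0.24 for LRRC4C). With the mean over its 2 detected probes the bound for NRCAM was -0.41, also under 1.5-fold. With an offset of 50, NRCAM (-0.56), RGMB (-0.56), LRRC4C (-0.44) and VEGFA (0.57) were all under it. Over the 4 lists together 6 of 58 detected genes (10.3%) were higher and 8 (13.8%) lower, near the 11.8% and 12.2% of all detected genes.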

How the data were processed

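Total RNA of radiation-adapted and wild-type A4573 cells was measured on 1 Illumina array each, after Trizol extraction and TotalPrep biotin labelling, per the labels' protocols. Per the file headers, the deposited intensity is a probe's average signal, before normalisation, with a detection p-value beside it; the deposited detection p-value was used as given. The authors' processed intensity values (median 10.6 in each array, 27.7% below 0, sorted columns at most 0.5 apart) put the probes in the order of that array's own summary signal, which settles their direction; the sources used here name neither their processing nor the scanner software.

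Probes were named from the platform annotation: 30113 had 1 gene symbol, 8 several and 17202 were not listed; 30074 were found by gene ID in RefSeq (GRCh38.p14). Main values came from neqc of limma 3.58.1 in R 4.3.3, with an offset of 16. Of a gene's probes with a detection p no higher than 0.01 in an array, the brightest by mean log2 value stood for it. Where a single array detected a gene, its bound is the gap from the bright value down to the dim value or, if higher, to the dimmest detected probe (normalised 5.49 in the adapted array and 5.32 in the wild-type array). The main normalisation and the one without background correction were run on simulated arrays with known changes and equal background. The other settings were not. Python 3.11.15, pandas 2.3.3, numpy 2.4.6 and matplotlib 3.10.9 were used. Quantile normalisation takes out differences in total RNA, and the offset shrinks those of dim probes. No test was made, as each group has 1 array; the number of arrays limits the precision.

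Every member at least 1.5-fold apart is given with both intensities; of the other lists, up to 4 genes in each direction past that size are named, and the collapsin response mediators and the pairs of partners were picked after their values were seen. The members, lists, motifs and rules were chosen with earlier results of these data known.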

Additional observations from a re-analysis of the deposited data

How the results depend on the processing

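The 7 alternatives were no background correction, an offset of 50, median scaling, the authors' processed values, a detection p of 0.05, detection in both arrays and the mean over probes; leaving out UNC50 was tried as well. Among the 11 members at least 1.5-fold apart none changed direction under any alternative that gave a value, and SEMA5B, UNC5A and PLXNB2 stayed past 1.5-fold under all 7. Not all 7 are a check for each gene. No correction, the offset and the authors' values keep nearly the same order of probes within each array. They also bring both arrays to nearly the same distribution. The direction of genes this far apart could therefore hardly change under these settings. By its definition the bound of SEMA6B cannot cross 0. For a gene with 1 probe, detected in both arrays, the alternatives on detection and the mean over probes return the main value. The authors' processed values were read with the same offset of 16 as the main values. Without background correction 2 members were higher and 2 lower, the median over members was -0.17, 0 partner and effector genes were higher and 4 lower, and 4.24% of all detected genes were higher and 5.81% lower. With an offset of 50, 1 of 58 partner and effector genes was higher and 5 lower, against 7.75% higher and 9.14% lower of all detected genes. Median scaling gave a median over members of -0.20 and 19.1% of all detected genes higher. With detection in both arrays 5 of 53 partner and effector genes were lower, against 11.9% of all detected genes. SEMA6B was also under 1.5-fold with an offset of 50, and at a detection p of 0.05 PLXNB3 (higher) and SEMA3G (lower) joined the members past 1.5-fold. At that limit 12.8% of the 39 detected members were higher and 20.5% lower, against 11.5% and 12.2% of all detected genes. The no-correction and offset settings shrink dim differences by construction. Detection in both arrays leaves out genes that a single array detected, among them NRCAM, RGMB and LRRC4C. A detection p of 0.05 lets dimmer probes count as detected, which widens the bounds. The cause of the other changes was not tested. No paired analysis was possible because each group has 1 array. Low signal over background limits most members, since 19 of 32 read under 300 in both arrays.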
